A study of Mus musculus with 4 samples.

Results

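Ribosome biogenesis and nucleolar genes were followed in primary cultures of neural stem cells from P0 mouse cortex. The question was how they were expressed in Seh1-depleted and control cells, in growth medium and after growth factor withdrawal. The 40 members are a fixed list of symbols: core proteins of the small nucleolar ribonucleoproteins (snoRNPs), nucleolar phosphoproteins, RNA polymerase I and its factors, and assembly factors of the small (40S) and large (60S) ribosomal subunits. All 40 were found among the 17621 genes in the files, and all 40 were among the 12976 genes compared, those whose mean reached 1 CPM (read counts scaled to library size). Total RNA was sequenced from 4 libraries, 1 per group. The groups were iKO cells (labelled cmv-cre-ert,seh1 f/f) and Ctrl cells (labelled Seh1 f/f), each at day 3 after withdrawal of EGF and bFGF and at day 0 in growth medium with both factors. Both genotypes thus carried the floxed Seh1 alleles, and the recombinase was in iKO cells only, so an action of the recombinase itself cannot be told apart from loss of Seh1. The sources used here give no inducer of the recombinase, no number of mice behind a culture and nothing on pooling.

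Ribosomes begin in the nucleolus, where RNA polymerase I transcribes the repeated ribosomal DNA (rDNA) into a long precursor. Guide RNAs in box C/D snoRNPs direct ribose methylation of that precursor and those in box H/ACA snoRNPs direct pseudouridylation, while large sets of assembly factors fold, cut and export the 40S and 60S subunits. Output of this pathway is known to be high in growing and dividing cells, and many of its genes are known targets of the MYC transcription factors.

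With 1 library per group there was no spread between cultures to measure, so no test was run and no p-value is given. Levels are CPM after TMM scaling. A gene counted as lower or higher when its ratio of CPM + 1 reached 2-fold, and log2 ratios are on that scale. Printed folds are CPM ratios without the added 1, and their brackets are 95% intervals that cover counting error only. Library totals lay between 19611788 and 21040590 expected counts, which made the median half-width of a member's interval between 0.09 and 0.16 on the log2 scale. Seh1l, the targeted gene, was at 11.0 CPM in iKO cells and 33.2 in Ctrl cells at day 3, 3.01-fold lower (2.58 to 3.54) in iKO cells. At day 0 it was at 19.2 CPM in iKO cells and 40.3 in Ctrl cells, 2.10-fold lower (1.86 to 2.37) in iKO cells. Seh1l counts were thus reduced in iKO cells at both days but not absent. All 11 neural stem cell markers were detected in each library, but did not move as 1 list: for iKO over Ctrl, 7 were below 0 at day 3, from Hes5 at -2.79 to Prom1 at 1.42, and 8 at day 0, from Hes5 at -1.02 to Vim at 0.23. They summed to 5509 CPM in iKO cells and 5798 CPM in Ctrl cells at day 3, and to 6470 CPM in iKO cells and 6394 CPM in Ctrl cells at day 0. Astrocyte markers summed to 11040 CPM in iKO cells and 10260 CPM in Ctrl cells at day 3, and to 2647 CPM in iKO cells and 1940 CPM in Ctrl cells at day 0. In bulk RNA of this kind, fewer cells of a type and less RNA per cell cannot be told apart.

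The E-box CACGTG, the preferred site of MYC and MAX dimers and also bound by other factors, was searched for in windows of 300 bases, from 250 before to 50 after each RefSeq transcription start (GRCm38.p6). The motif is its own reverse complement, so both strands give the same matches. Promoters were in the table for 35 of the 40 members, all but Fbl, Npm1, Bop1, Rrs1 and Rrp12, and 7 of the 35 (20%) held the motif. It was held by 11.7% of the genes compared that were in the table, by 8.09% of all genes in the table and by 9.09% of 66 cytosolic ribosomal protein genes. The sequences below are shown because they carry the motif in the members with the most copies, ties broken by the lowest day 3 over day 0 ratio in Ctrl cells. Imp4 was added after its values were seen. Capitals mark the motif, and each is written 5′ to 3′ on the strand of its gene. Rrn3 (chr16:13780449-13780698, plus strand), Nop2 (chr6:125131633-125131882, plus strand) and Imp4 (chr1:34439579-34439828, plus strand) are shown over the 250 bases before the start. Utp20 (chr10:88826765-88826794, minus strand) and Mybbp1a (chr11:72441347-72441376, plus strand) hold it just after the start and are shown over 30 bases.
Rrn3: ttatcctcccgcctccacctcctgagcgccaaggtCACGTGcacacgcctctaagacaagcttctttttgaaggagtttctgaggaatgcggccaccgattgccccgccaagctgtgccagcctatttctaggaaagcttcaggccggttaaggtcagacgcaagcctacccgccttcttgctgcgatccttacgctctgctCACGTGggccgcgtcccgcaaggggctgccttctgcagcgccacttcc
Nop2: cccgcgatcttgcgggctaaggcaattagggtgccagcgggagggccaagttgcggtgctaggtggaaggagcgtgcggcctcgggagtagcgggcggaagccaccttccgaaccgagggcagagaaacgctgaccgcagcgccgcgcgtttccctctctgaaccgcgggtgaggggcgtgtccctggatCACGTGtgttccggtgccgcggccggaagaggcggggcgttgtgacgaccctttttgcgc
Imp4: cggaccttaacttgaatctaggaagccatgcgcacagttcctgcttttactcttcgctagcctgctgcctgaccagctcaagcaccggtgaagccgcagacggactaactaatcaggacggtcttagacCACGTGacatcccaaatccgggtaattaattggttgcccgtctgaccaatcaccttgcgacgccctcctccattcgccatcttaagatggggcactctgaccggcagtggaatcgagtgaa
Utp20: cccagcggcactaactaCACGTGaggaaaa
Mybbp1a: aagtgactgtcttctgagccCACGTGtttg
Counted from the start, the motif began at -215 and -48 in Rrn3, at -60 in Nop2, at -121 in Imp4, at 37 in Utp20 and at 40 in Mybbp1a. The other 2 holders were Wdr43, at 17, and Pes1, at 2. A match is a match of letters in this window, and binding was not measured.

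The members were abundant in growing cells and made up a smaller share of the library at day 3. Their summed counts were 0.180% of the library in iKO cells and 0.224% in Ctrl cells at day 3, and 0.465% in iKO cells and 0.631% in Ctrl cells at day 0. Ncl and Npm1 alone held between 26.1% and 30.5% of those counts. Without them the members summed to 1379 CPM in iKO cells and 1626 CPM in Ctrl cells at day 3, and to 3141 CPM in iKO cells and 4535 CPM in Ctrl cells at day 0. Per length, the median member was at 11.4 FPKM in iKO cells and 13.9 FPKM in Ctrl cells at day 3, and at 29.8 FPKM in iKO cells and 37.7 FPKM in Ctrl cells at day 0. Over the genes compared, the median FPKM lay between 10.3 and 11.4 in the 4 libraries. Npm1 had the highest FPKM of the members in each library, 121.5 in iKO cells and 161 in Ctrl cells at day 3, and 436 in iKO cells and 631 in Ctrl cells at day 0. Rrp12 had the lowest mean FPKM of the members, at percentile 31.3 of the genes compared, whereas the median member was at percentile 70.7.

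**Figure D1:**
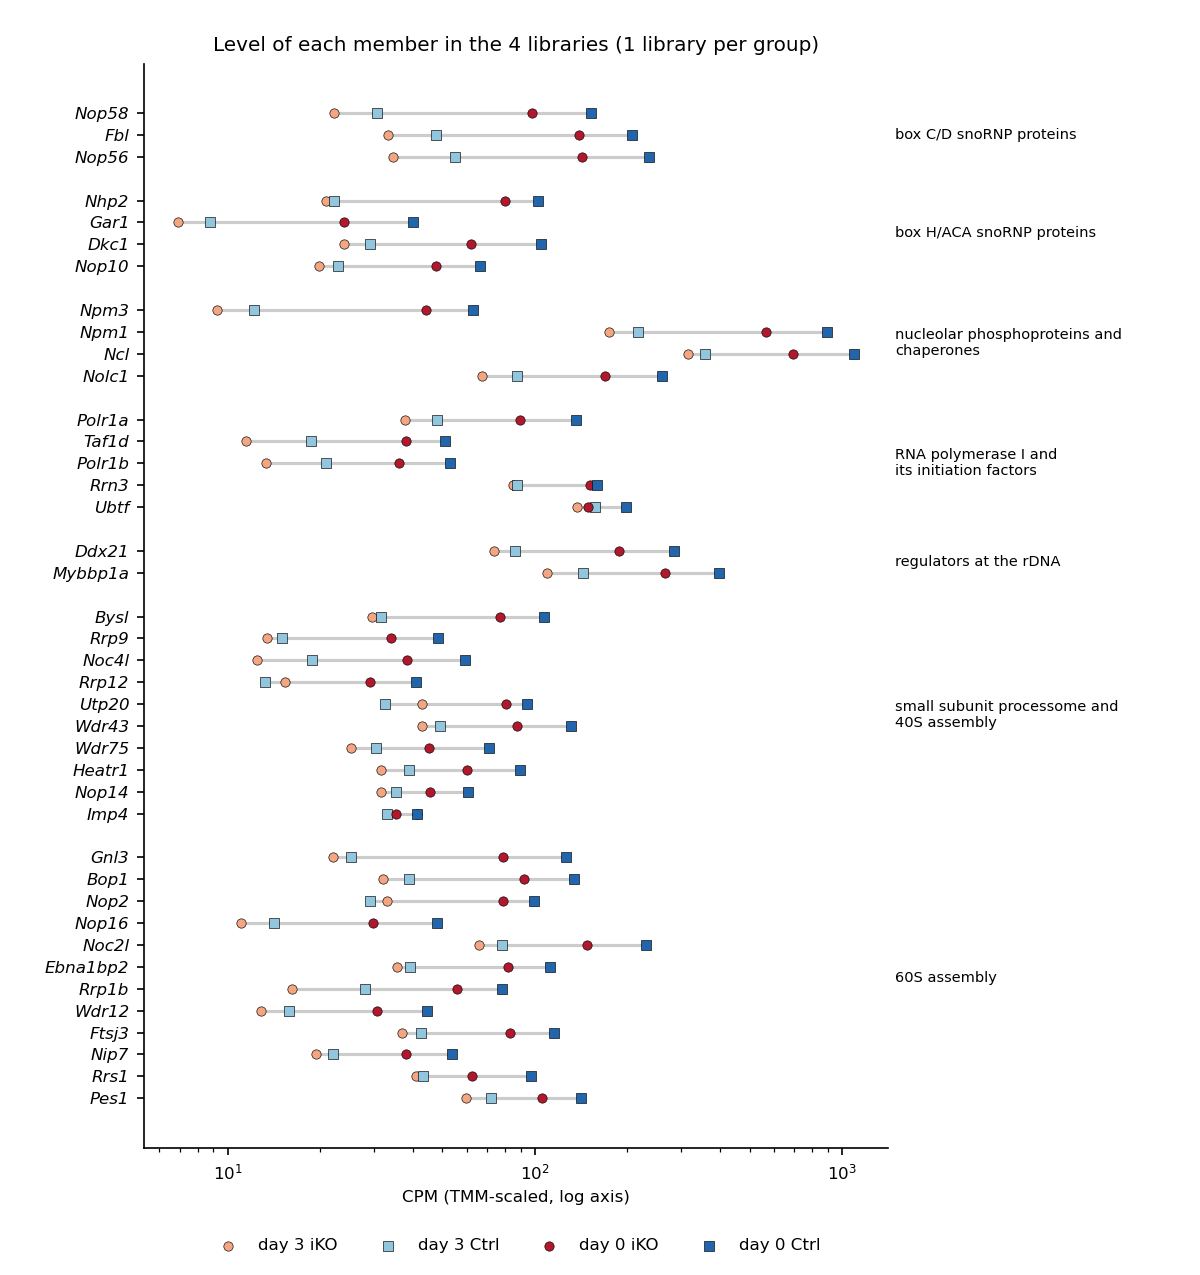
Level of each of the 40 members in CPM (TMM-scaled, log axis) in the 4 libraries, with circles for iKO, squares for Ctrl, light colours for day 3 and dark colours for day 0. The grey line joins a gene's lowest and highest library. In 35 of the 40 members the order was day 0 Ctrl highest, then day 0 iKO, day 3 Ctrl and day 3 iKO. The share of the genes compared with this order was not computed.

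In growth medium, iKO cells expressed less of 39 of the 40 members than Ctrl cells, from 1.17-fold to 1.69-fold lower. The exception was Rrn3, which was within counting error and above 0 with library totals or the deposited FPKM. Rrp1b was lower as summed over its transcripts, and the lower counts lay in a predicted non-coding one. All 40 log2 ratios of iKO over Ctrl at day 0 were below 0, against 56.5% of the genes compared, and the median was -0.54, against -0.06 over the genes compared. As CPM ratios, the median member was 1.47-fold lower in iKO cells. No member reached 2-fold in either direction, where 0.331% of the genes compared were at least 2-fold lower and 2.67% at least 2-fold higher. A total of 15 were at least 1.5-fold lower, where the background was 5.51%. That count of 15 was 3 when library totals or the deposited FPKM replaced TMM scaling, against 2.62% and 2.19% of the genes compared under those settings, which also moved the median over the genes compared above 0. Of the members, 27 lay in the lowest 10% of the genes compared and 37 in the lowest 25%. Dkc1 was lowest at -0.74, and Rrn3 was highest at -0.07, the only one whose interval took in a ratio of 1. The intervals of the other 39 lay below 1, where those of 39.5% of the genes compared did, and with library totals Imp4 also took in 1.

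At day 3 the members were again mostly lower in iKO cells, but closer to Ctrl and more spread among themselves. The genes compared were more spread too, with percentiles 5 and 95 at -0.96 and 1.10 at day 3, and at -0.61 and 0.79 at day 0. The members' counting intervals were also wider, with a median half-width of 0.16 at day 3 and 0.09 at day 0. Of 40 log2 ratios, 36 were below 0, against 51.3% of the genes compared, with a median of -0.25, against -0.01 over the genes compared. No member reached 2-fold in either direction, where 4.76% of the genes compared were at least 2-fold lower and 6.27% at least 2-fold higher. Only 4 members were at least 1.5-fold lower, a share of the members near the background of 11.3%: Rrp1b (-0.75), Taf1d (-0.66), Nop56 (-0.65) and Polr1b (-0.62). With a pseudocount of 5 CPM the count was 2, where 7.91% of the genes compared were that much lower. The intervals lay below 1 for 29 members, took in 1 for 8, and lay above 1 for Utp20, Imp4 and Nop2, where those of 35.6% of the genes compared lay below 1 and of 34.5% above. With library totals they lay below 1 for 35 members, against 42.3% of the genes compared, and above 1 for Utp20 and Imp4. Of the members, 12 lay in the lowest 25% of the genes compared and 3 in the lowest 10%.

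**Figure D2:**
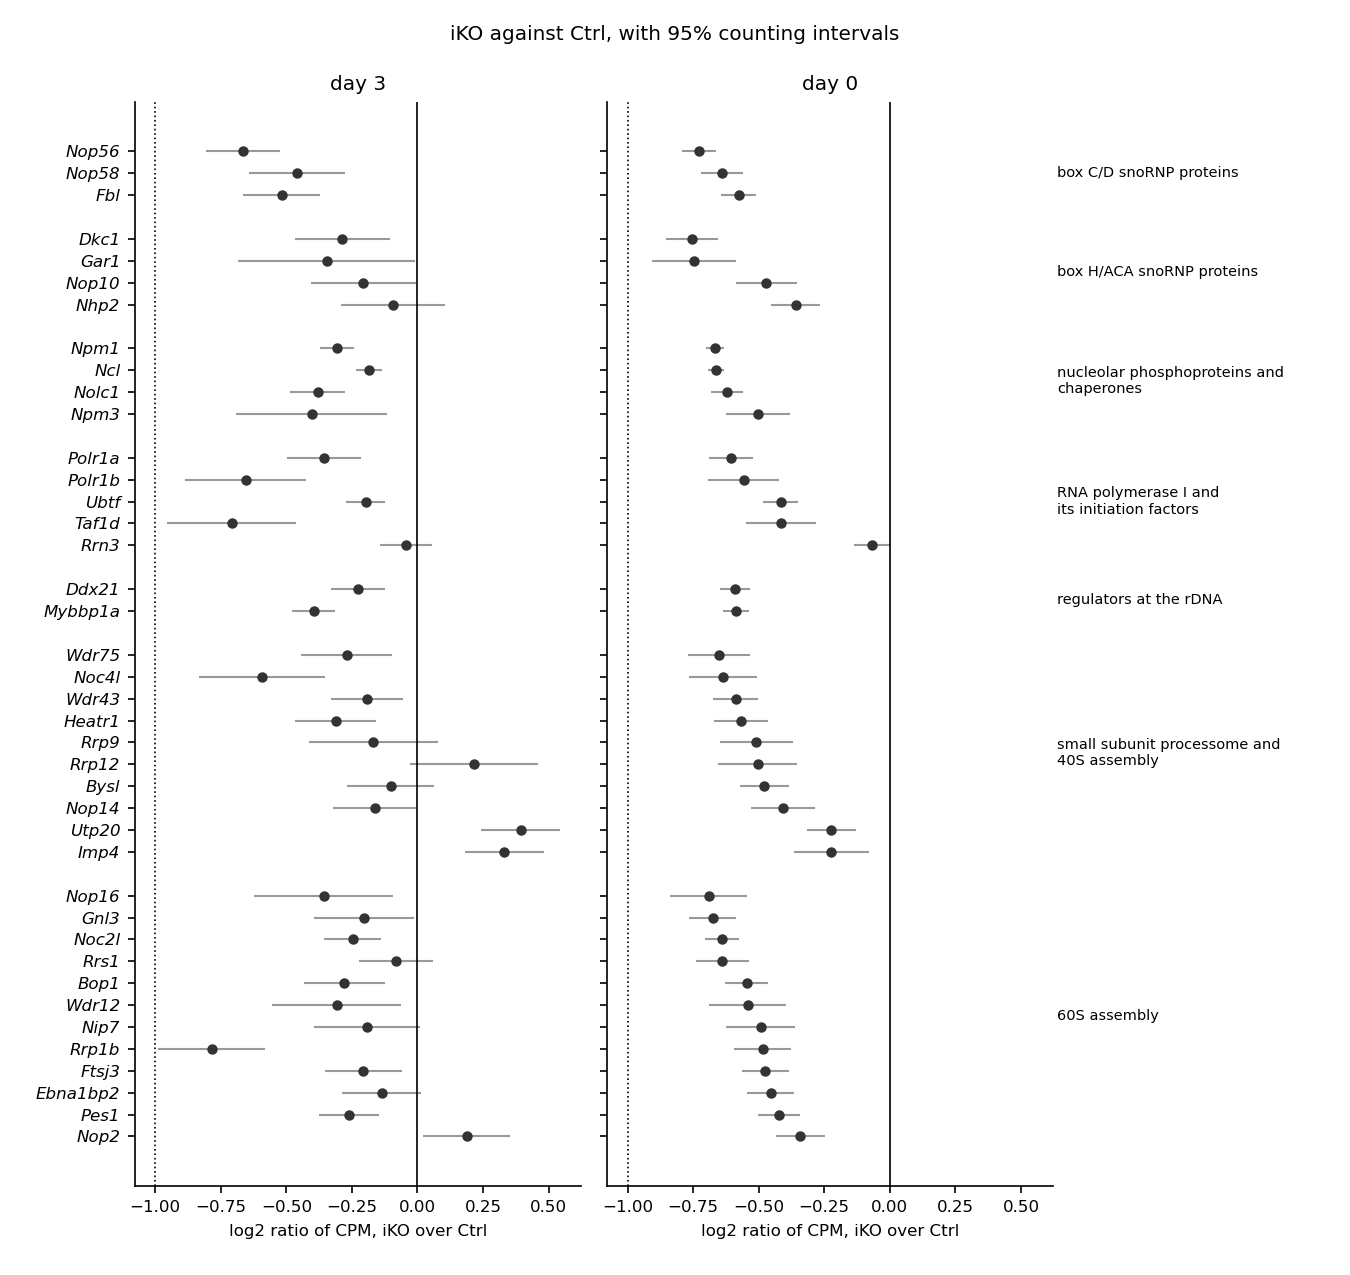
Log2 ratio of CPM (without pseudocount), iKO over Ctrl, for each member at day 3 (left) and day 0 (right), grouped by role. Bars are 95% counting intervals, the solid line is a ratio of 1 and the dotted line is 2-fold lower. At day 0 all 40 points lie left of the solid line, and at day 3 the points of Utp20, Imp4, Rrp12 and Nop2 lie right of it.

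The members were far lower at day 3 than at day 0 in both genotypes. Day and medium differ together and cannot be told apart. In iKO cells 29 members were at least 2-fold lower at day 3 than at day 0, where 11.4% of the genes compared were, and the median log2 ratio was -1.25, against -0.01 over the genes compared. In Ctrl cells 35 members were at least 2-fold lower, where 15.1% of the genes compared were, and the median was -1.53, against -0.02. Members lower by any amount numbered 39 in iKO cells, where the background was 50.4%, and 40 in Ctrl cells, where it was 51%. The exception in iKO cells was Imp4, at 0.23. At least 1.5-fold lower were 37 members in iKO cells, where the background was 21.9%, and 38 in Ctrl cells, where it was 26.7%. No member was at least 2-fold higher in either genotype, where 11.2% of the genes compared were in iKO cells and 14.6% in Ctrl cells. The member nearest to the 2-fold line in iKO cells was Wdr43 inside it (-1.01) and Nip7 outside it (-0.95), and in Ctrl cells it was Rrs1 inside (-1.15) and Pes1 outside (-0.96). The ratios of iKO and Ctrl cells share no library, but each shares its libraries with the genotype ratios above, so the 4 comparisons are given side by side and not as independent evidence.

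**Figure D3:**
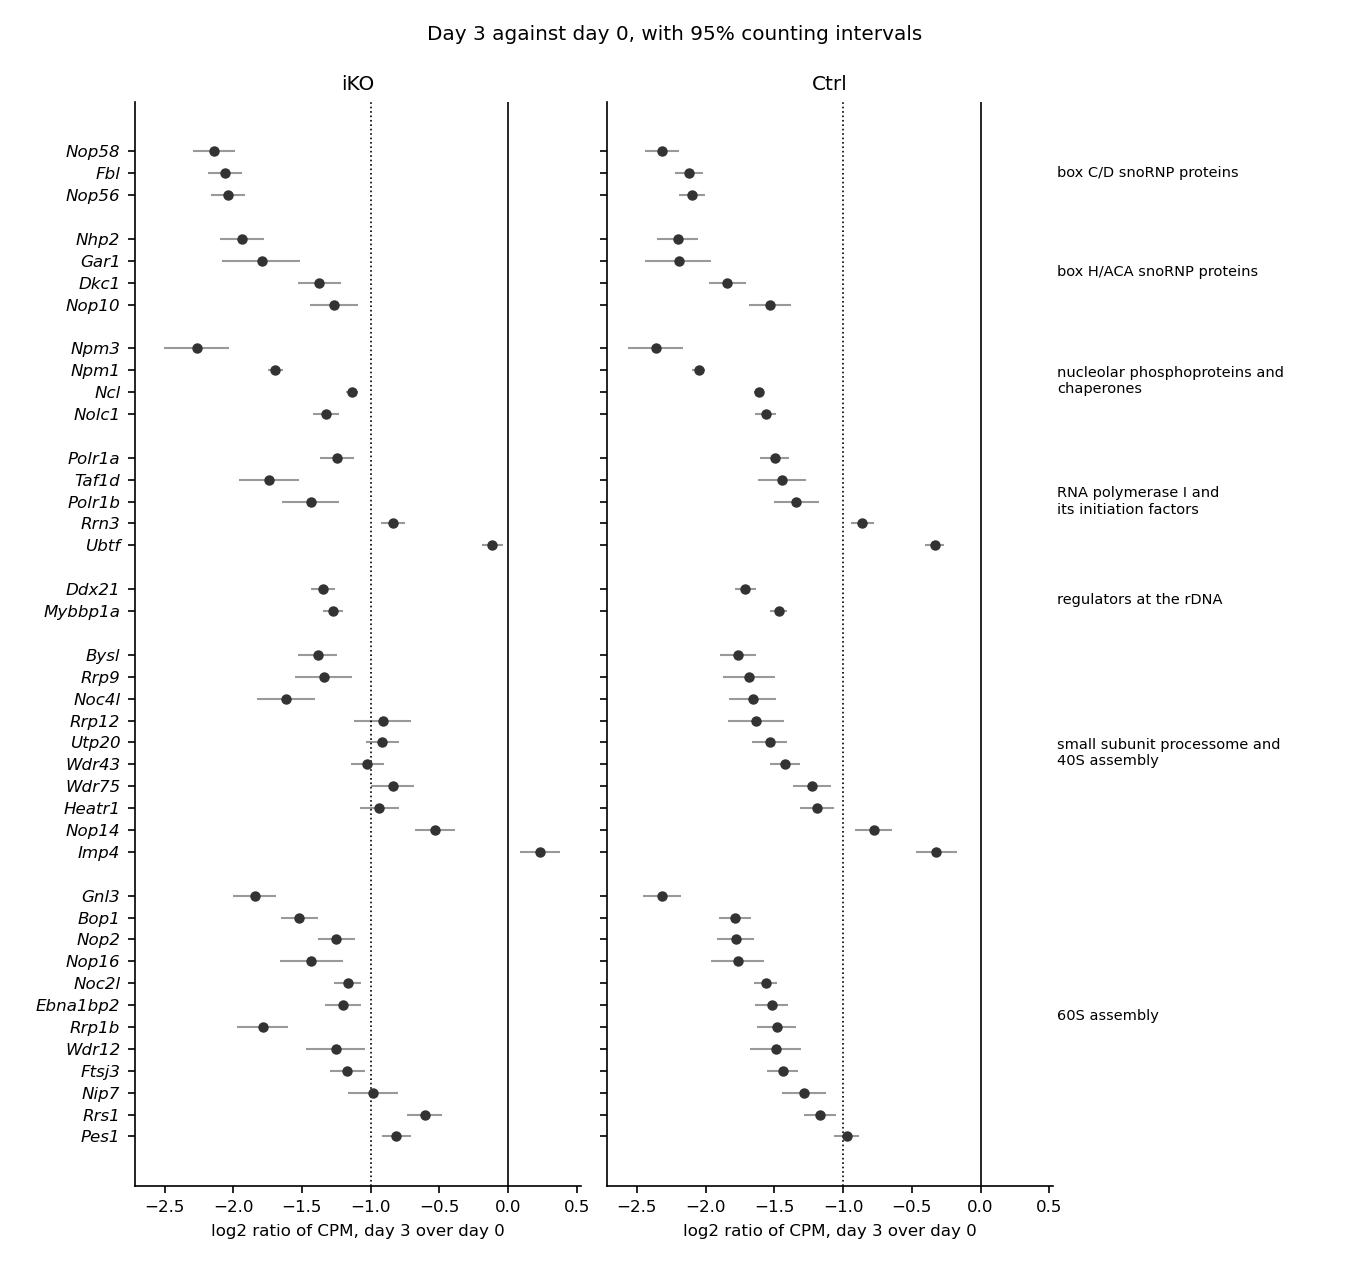
Log2 ratio of CPM (without pseudocount), day 3 over day 0, for each member in iKO cells (left) and Ctrl cells (right), grouped by role and ordered by the Ctrl ratio. Bars are 95% counting intervals, the solid line is a ratio of 1 and the dotted line is 2-fold lower. Npm3 and Nop58 lie farthest left in both panels, and Imp4, Ubtf and Nop14 lie nearest the solid line.

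The 3 box C/D proteins had the lowest median of the 7 role sets for iKO over Ctrl at day 3 and for day 3 over day 0 in both genotypes. Nop56, which with Nop58 forms the scaffold of the particle, was at 34.7 CPM in iKO cells and 55.0 in Ctrl cells at day 3, and 142 CPM in iKO cells and 236 in Ctrl cells at day 0. It was 1.59-fold lower (1.44 to 1.75) in iKO cells than in Ctrl cells at day 3 and 1.66-fold lower (1.58 to 1.73) at day 0. Nop58 was at 22.2 CPM in iKO cells and 30.5 in Ctrl cells at day 3, and 97.7 CPM in iKO cells and 152 in Ctrl cells at day 0. Between the days Nop58 was 4.40-fold lower (3.96 to 4.90) at day 3 in iKO cells and 4.98-fold lower (4.57 to 5.44) in Ctrl cells, the lowest log2 ratio of any member in Ctrl cells with the 1 CPM added. Fbl encodes fibrillarin, the methyltransferase of the particle, and was at 33.4 CPM in iKO cells and 47.8 in Ctrl cells at day 3, and 139 CPM in iKO cells and 208 in Ctrl cells at day 0. Its genotype ratio was -0.50 at day 3 and -0.57 at day 0. For all 3 genes the day 0 libraries were both above the day 3 libraries, and iKO was below Ctrl at each day. The median of the 3 was -0.50 at day 3 and -0.63 at day 0 for iKO over Ctrl, and -2.03 in iKO cells and -2.10 in Ctrl cells for day 3 over day 0.

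The 4 box H/ACA proteins had a median genotype ratio of -0.24 at day 3 and -0.59 at day 0. Dkc1, the pseudouridine synthase dyskerin, was at 23.9 CPM in iKO cells and 29.1 in Ctrl cells at day 3, and 61.9 CPM in iKO cells and 104 in Ctrl cells at day 0. That made it 1.22-fold lower (1.08 to 1.38) in iKO cells at day 3 and 1.69-fold lower (1.57 to 1.81) at day 0. Gar1, a core protein rich in glycine and arginine, had the fewest counts of any member, and was at 6.89 CPM in iKO cells and 8.76 in Ctrl cells at day 3, and 23.9 CPM in iKO cells and 40.1 in Ctrl cells at day 0. It was 1.27-fold lower (1.01 to 1.61) in iKO cells at day 3 and 1.68-fold lower (1.5 to 1.88) at day 0. Nhp2, another core protein, was at 20.9 CPM in iKO cells and 22.3 in Ctrl cells at day 3, and 79.9 CPM in iKO cells and 102 in Ctrl cells at day 0. It was the least lower of the 4 in iKO cells, 1.07-fold lower (0.930 to 1.23) at day 3, an interval that took in 1, and 1.28-fold lower (1.20 to 1.37) at day 0. Nhp2 was nevertheless the lowest of the 4 across the days, 3.83-fold lower (3.43 to 4.28) at day 3 in iKO cells and 4.60-fold lower (4.15 to 5.11) in Ctrl cells. Nop10, the smallest core protein, was the highest of the 4 across the days, with log2 ratios of -1.23 in iKO cells and -1.49 in Ctrl cells. Its levels were 19.9 CPM in iKO cells and 22.9 in Ctrl cells at day 3, and 47.8 CPM in iKO cells and 66.2 in Ctrl cells at day 0.

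Among the nucleolar phosphoproteins and chaperones, nucleolin and nucleophosmin had the most counts of any member and so the narrowest intervals. Ncl, an RNA-binding phosphoprotein of the nucleolus, was at 315 CPM in iKO cells and 358 in Ctrl cells at day 3, and 692 CPM in iKO cells and 1095 in Ctrl cells at day 0. In iKO cells it was 1.14-fold lower (1.10 to 1.18) at day 3 and 1.58-fold lower (1.55 to 1.61) at day 0. Npm1, a histone and assembly chaperone that helps form the outer layer of the nucleolus, was at 175 CPM in iKO cells and 216 in Ctrl cells at day 3, and 565 CPM in iKO cells and 896 in Ctrl cells at day 0. It was 1.24-fold lower (1.18 to 1.29) in iKO cells at day 3 and 1.59-fold lower (1.55 to 1.62) at day 0. For both genes the iKO level at day 0 lay between Ctrl at day 0 and Ctrl at day 3. Npm3, a nucleoplasmin relative of Npm1, was at 9.22 CPM in iKO cells and 12.2 in Ctrl cells at day 3, and 44.3 CPM in iKO cells and 62.8 in Ctrl cells at day 0. It was 4.80-fold lower (4.08 to 5.67) at day 3 in iKO cells, the lowest ratio of any member there, and 5.15-fold lower (4.49 to 5.93) in Ctrl cells. Nolc1, which binds both kinds of snoRNP, was at 67.3 CPM in iKO cells and 87.7 in Ctrl cells at day 3, and 169 CPM in iKO cells and 259 in Ctrl cells at day 0. Its genotype ratio was -0.38 at day 3, the lowest of the 4, and -0.62 at day 0.

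The RNA polymerase I genes did not move as 1 set: the catalytic subunits and Taf1d were lower both in iKO cells and at day 3, whereas of the 5 genes Rrn3 differed least between the genotypes and Ubtf least between the days. Polr1a, the largest subunit, was at 37.7 CPM in iKO cells and 48.2 in Ctrl cells at day 3, and 89.4 CPM in iKO cells and 136 in Ctrl cells at day 0. That made it 1.28-fold lower (1.16 to 1.41) in iKO cells at day 3 and 1.52-fold lower (1.44 to 1.61) at day 0. Polr1b, the other catalytic subunit, was at 13.3 CPM in iKO cells and 20.9 in Ctrl cells at day 3, and 36.0 CPM in iKO cells and 53.0 in Ctrl cells at day 0. Its intervals for the genotype ratio overlapped between the days, 1.57-fold lower (1.34 to 1.85) in iKO cells at day 3 and 1.47-fold lower (1.34 to 1.62) at day 0. Taf1d, a subunit of the selectivity factor that places the polymerase at the rDNA promoter, was at 11.4 CPM in iKO cells and 18.7 in Ctrl cells at day 3, and 38.2 CPM in iKO cells and 50.9 in Ctrl cells at day 0. It was 1.63-fold lower (1.38 to 1.94) in iKO cells at day 3 and 1.33-fold lower (1.22 to 1.46) at day 0. Across the days it was 3.33-fold lower (2.87 to 3.89) at day 3 in iKO cells and 2.72-fold lower (2.42 to 3.07) in Ctrl cells. Most counts of Taf1d lay on predicted non-coding transcripts in each library. Ubtf, the HMG-box factor that keeps rDNA open, was at 137 CPM in iKO cells and 157 in Ctrl cells at day 3, and 149 CPM in iKO cells and 198 in Ctrl cells at day 0. That made it 1.08-fold lower (1.03 to 1.14) at day 3 in iKO cells and 1.26-fold lower (1.20 to 1.32) in Ctrl cells. Rrn3, the growth-regulated factor that joins the polymerase to its promoter complex, was at 84.9 CPM in iKO cells and 87.6 in Ctrl cells at day 3, and 152 CPM in iKO cells and 159 in Ctrl cells at day 0. Its genotype intervals took in 1 at both days, 1.03-fold lower (0.964 to 1.10) in iKO cells at day 3 and 1.05-fold lower (0.998 to 1.10) at day 0. Its day 0 log2 ratio was above 0 with library totals or FPKM. With library totals the interval of its iKO over Ctrl ratio at day 3 lay below 1, from 0.8555 to 0.9806. Across the days Rrn3 was 1.79-fold lower (1.68 to 1.90) at day 3 in iKO cells and 1.82-fold lower (1.71 to 1.93) in Ctrl cells. Both regulators at the rDNA were lower in iKO cells: Ddx21, an RNA helicase, was at 73.8 CPM in iKO cells and 86.3 in Ctrl cells at day 3, and 188 CPM in iKO cells and 283 in Ctrl cells at day 0. Mybbp1a, a nucleolar MYB-binding protein, was at 109 CPM in iKO cells and 144 in Ctrl cells at day 3, and 265 CPM in iKO cells and 398 in Ctrl cells at day 0. The genotype ratio was -0.22 at day 3 and -0.59 at day 0 for Ddx21, and -0.39 at day 3 and -0.58 at day 0 for Mybbp1a.

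The 10 small subunit factors had the widest range of the role sets at day 3, with a median genotype ratio of -0.16 at day 3 and -0.49 at day 0. Wdr75, a processome protein, had the lowest day 0 ratio of the 10, at 45.3 CPM in iKO cells and 71.2 in Ctrl cells at day 0, 1.57-fold lower (1.45 to 1.71). Noc4l, whose yeast counterpart binds that of Nop14, had the lowest day 3 ratio of the 10, at 12.5 CPM in iKO cells and 18.9 in Ctrl cells at day 3, 1.51-fold lower (1.28 to 1.78). The opposite end was held by Utp20 and Imp4. Utp20, a very large processome protein, was at 42.8 CPM in iKO cells and 32.6 in Ctrl cells at day 3, and 80.8 CPM in iKO cells and 94.3 in Ctrl cells at day 0. It was 1.31-fold higher (1.18 to 1.46) in iKO cells at day 3 and 1.17-fold lower (1.09 to 1.25) at day 0. Imp4, a protein that holds the U3 snoRNA on the precursor, was at 41.5 CPM in iKO cells and 33.0 in Ctrl cells at day 3, and 35.3 CPM in iKO cells and 41.2 in Ctrl cells at day 0. It was 1.26-fold higher (1.13 to 1.40) in iKO cells at day 3 and 1.17-fold lower (1.06 to 1.29) at day 0. Across the days it was 1.18-fold higher (1.06 to 1.30) at day 3 in iKO cells and 1.25-fold lower (1.13 to 1.39) in Ctrl cells. With library totals its interval took in 1 for iKO over Ctrl at day 0 and for day 3 over day 0 in iKO cells. By value the highest library for Imp4 was iKO at day 3, with Ctrl at day 0 close by, and this order held for no other member. Rrp12, known in yeast as an export factor of the subunits, was at 15.4 CPM in iKO cells and 13.3 in Ctrl cells at day 3, with an interval that took in 1, and at 29.0 CPM in iKO cells and 41.2 in Ctrl cells at day 0, 1.42-fold lower (1.28 to 1.57) in iKO cells. Bysl, which encodes bystin, a factor of late small subunit assembly, was the lowest of the 10 across the days in Ctrl cells, at 29.5 CPM in iKO cells and 31.6 in Ctrl cells at day 3, and 77.0 CPM in iKO cells and 107 in Ctrl cells at day 0. Wdr75 together with the processome proteins Nop14, Heatr1, Wdr43 and Rrp9 had log2 genotype ratios from -0.30 to -0.16 at day 3, and from -0.64 to -0.40 at day 0. Nop14 stood out only across the days, 1.45-fold lower (1.31 to 1.60) at day 3 in iKO cells and 1.72-fold lower (1.56 to 1.88) in Ctrl cells.

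The 12 large subunit factors had a median genotype ratio of -0.22 at day 3 and -0.50 at day 0. Nop16, a protein of early large subunit particles, had the lowest day 0 ratio of the 12, at 29.7 CPM in iKO cells and 48.0 in Ctrl cells at day 0, 1.61-fold lower (1.46 to 1.79). Gnl3 encodes nucleostemin, a nucleolar GTPase known from stem cells, and was at 22.0 CPM in iKO cells and 25.3 in Ctrl cells at day 3, and 78.9 CPM in iKO cells and 126 in Ctrl cells at day 0. Gnl3 was the lowest of the 12 across the days in both genotypes, 3.59-fold lower (3.22 to 4.00) at day 3 in iKO cells and 4.98-fold lower (4.52 to 5.48) in Ctrl cells. Rrp1b, a nucleolar protein of the RRP1 family, had the lowest day 3 ratio of all members, at 16.2 CPM in iKO cells and 28.0 in Ctrl cells at day 3, and 55.9 CPM in iKO cells and 78.2 in Ctrl cells at day 0. That made it 1.72-fold lower (1.5 to 1.99) at day 3 and 1.40-fold lower (1.30 to 1.51) at day 0, summed over all its transcripts. A predicted non-coding transcript of Rrp1b had 334.1 expected counts in iKO cells and 874.7 in Ctrl cells at day 0. Its coding transcripts with counts at day 0 had 310.5, 367.8, 205.3 and 0 in iKO cells. In the same order they had 242.5, 258.2, 95.74 and 118.8 in Ctrl cells. Together the coding counts were not lower in iKO cells at day 0. The lower total of the gene at that day thus lay in the non-coding transcript. A fold for the coding transcripts alone was not computed. Nop2, a methyltransferase of the large subunit RNA, was at 33.1 CPM in iKO cells and 29.1 in Ctrl cells at day 3, and 78.7 CPM in iKO cells and 99.7 in Ctrl cells at day 0. It was 1.14-fold higher (1.01 to 1.28) in iKO cells at day 3 and 1.27-fold lower (1.19 to 1.35) at day 0. With library totals its day 3 interval took in 1. The 3 subunits of the PeBoW complex, which matures the large subunit RNAs, were lower in iKO cells at both days: the log2 ratios of Pes1, Bop1 and Wdr12 were -0.26, -0.27 and -0.29 at day 3, and -0.42, -0.54 and -0.53 at day 0. Pes1 was the least lower of the 12 across the days in Ctrl cells, 1.96-fold lower (1.84 to 2.09), and 1.76-fold lower (1.64 to 1.89) in iKO cells. Rrs1, which helps bring the 5S particle into the large subunit, was at 41.0 CPM in iKO cells and 43.4 in Ctrl cells at day 3, and 62.5 CPM in iKO cells and 97.3 in Ctrl cells at day 0. It was 1.52-fold lower (1.40 to 1.67) at day 3 in iKO cells and 2.24-fold lower (2.07 to 2.43) in Ctrl cells. The remaining assembly factors Nip7, Noc2l and Ebna1bp2 and the RNA methyltransferase Ftsj3 had log2 genotype ratios from -0.24 to -0.13 at day 3, and from -0.64 to -0.45 at day 0.

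The genotype ratio was higher at day 3 than at day 0 for most members. The log2 ratio at day 3 minus that at day 0 was below 0 for 3 of 40 members, against 44.4% of the genes compared, and above 0 for the other 37. Its median was 0.27, against 0.06 over the genes compared. No member's difference reached 1 or -1, which 3.71% and 5.5% of the genes compared did. Without a pseudocount, the counting intervals of the difference lay above 0 for 30 members, took in 0 for 8 and lay below 0 for Rrp1b, at -0.30 (-0.53 to -0.07), and Taf1d, at -0.29 (-0.57 to -0.02). These intervals lay above 0 for 34% of the genes compared and below 0 for 25.2%. With library totals they lay above 0 for 12 members, against 19% of the genes compared, and below 0 for 4, Rrp1b, Taf1d, Polr1b and Rrn3, against 41.2%. Counts of Rrp1b and Taf1d were summed over coding and predicted non-coding transcripts. A non-coding transcript held 21.2% of Rrp1b counts in iKO cells and 19.0% in Ctrl cells at day 3, and 27.4% and 55.0% at day 0. In Taf1d most counts were of that kind, and differences for coding transcripts alone were not computed. The largest difference was that of Rrp12, at 0.72 (0.44 to 1.00), followed by Utp20, at 0.62 (0.44 to 0.79). These intervals hold no variation between cultures, so the difference itself was not tested. With library totals the median was 0.06 and with deposited FPKM 0.08. In both the count above 0 was 29, since Fbl, Nop56, Nop58, Npm3, Rrn3, Mybbp1a, Noc4l and Pes1 changed sign. Those settings also put the median over the genes compared at -0.13 and -0.11. Members below 0 at both days numbered 36 of 40 (90%), against 36.9% of the genes compared. Across the 40 members the ratios at the 2 days had a Pearson r of 0.53 and a Spearman rho of 0.49, and across the 12976 genes compared 0.44 and 0.43. Members were chosen together as 1 pathway and genes of 1 library are not independent, so these describe the libraries.

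**Figure D4:**
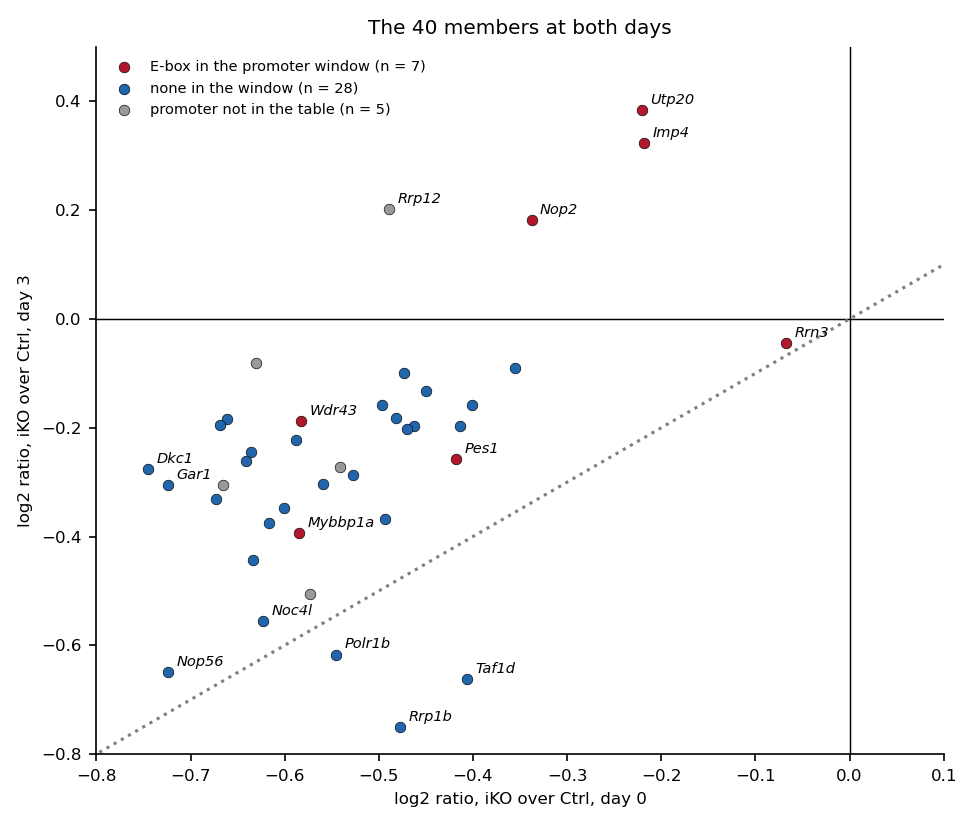
Log2 ratio of CPM + 1, iKO over Ctrl, at day 3 (vertical) against day 0 (horizontal) for the 40 members, coloured by whether the promoter window holds the E-box (7 members), does not (28) or is not in the table (5). Solid lines mark 0 and the dotted line equal ratios. Utp20, Imp4 and Nop2, which hold it, and Rrp12, whose promoter is not in the table, lie above 0 at day 3, and Polr1b, Taf1d and Rrp1b lie below the dotted line.

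The promoter letters shown above were set beside these values. The 7 members with the E-box had a median genotype ratio of -0.04 at day 3 and -0.34 at day 0, and the 28 without it -0.27 at day 3 and -0.55 at day 0. Rrn3, Imp4, Utp20 and Nop2, the 4 members least lower in iKO cells at day 0, all held it, which was noticed after the values were seen. The other holders, Mybbp1a, Wdr43 and Pes1, had day 0 ratios of -0.58, -0.58 and -0.42, inside the range of the members without it, -0.74 to -0.36. Across the days the medians were -0.90 with and -1.32 without the motif in iKO cells, and -1.40 and -1.55 in Ctrl cells. Myc, whose product drives growth genes, was at 48.9 CPM in iKO cells and 80.5 in Ctrl cells at day 3, and 189 CPM in iKO cells and 258 in Ctrl cells at day 0. That made it 1.65-fold lower (1.52 to 1.79) in iKO cells at day 3 and 1.37-fold lower (1.31 to 1.43) at day 0. Mycn was low, at 0.318 CPM in iKO cells and 2.39 in Ctrl cells at day 3, and 3.44 CPM in iKO cells and 3.84 in Ctrl cells at day 0. The MYC network list held MYC genes together with genes that pair with MAX in place of MYC. A count below 0 over both kinds thus gives no direction for MYC. Of 10 genes of the MYC network, 8 were below 0 for iKO over Ctrl at day 3, where 51.3% of the genes compared were, with a median of -0.39. At day 0 it was 7, near the background of 56.5%, with a median of -0.11. Mxd4, which pairs with MAX in place of MYC, had the highest ratio of the 10 at both days, at 85.0 CPM in iKO cells and 62.9 in Ctrl cells at day 3, and 49.0 CPM in iKO cells and 19.5 in Ctrl cells at day 0. That made it 1.35-fold higher (1.25 to 1.46) in iKO cells at day 3 and 2.51-fold higher (2.23 to 2.82) at day 0. Mxd3, of the same family, went the other way at day 0 and was the lowest of the 10, at -0.87. The part of the MYC network in the members' levels was not tested.

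The rest of the pathway was also mostly lower in iKO cells and at day 3, with medians closer to 0. A further 121 assembly genes were listed, and 112 were in the files and compared. The 9 host genes of snoRNAs among them, such as Gas5 and Snhg1, were not analysed here. For iKO over Ctrl, 92 of the 112 were below 0 at day 3, against 51.3% of the genes compared, with a median of -0.18. At day 0 it was 109, against 56.5% of the genes compared, with a median of -0.39. None was at least 2-fold lower at day 3, against 4.76% of the genes compared, and 1 was at day 0, against 0.331%. That 1 was Lyar, a nucleolar protein of growing cells, at 33.6 CPM in iKO cells and 68.2 in Ctrl cells at day 0, 2.03-fold lower (1.86 to 2.22). Across the days 38 were at least 2-fold lower at day 3 in iKO cells, against 11.4% of the genes compared, with a median of -0.85. In Ctrl cells it was 60, against 15.1% of the genes compared, with a median of -1.06. The remaining RNA polymerase I genes were the least lower of these sets across the days, with medians of -0.37 in iKO cells and -0.71 in Ctrl cells, Polr1e being the lowest at -1.78 in iKO cells and -1.31 in Ctrl cells, and Polr1c the lowest for iKO over Ctrl at day 3, at -0.55. Among 38 further small subunit factors, Nob1, the endonuclease of the last cut, was at 18.7 CPM in iKO cells and 29.6 in Ctrl cells at day 3, and 51.5 CPM in iKO cells and 69.2 in Ctrl cells at day 0. Ltv1 was the lowest across the days in Ctrl cells, at -1.62. Among 40 large subunit factors, the helicase Ddx51 had the lowest day 3 genotype ratio, at 11.4 CPM in iKO cells and 19.1 in Ctrl cells at day 3. Ruvbl2, an ATPase of snoRNP assembly, was at 34.5 CPM in iKO cells and 44.4 in Ctrl cells at day 3, and 103 CPM in iKO cells and 158 in Ctrl cells at day 0. In the exosome set, the helicase Mtrex was lowest in iKO cells at day 3 (-0.63) and the subunit Exosc8 across the days in Ctrl cells (-2.67).

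Ribosomal protein genes and dividing-cell genes were set beside the members in the same 4 libraries. The 82 cytosolic ribosomal protein genes compared were taken by symbol, which also takes in Rps19bp1, a binding protein. Their median genotype ratio was -0.49 at day 3 and -0.36 at day 0. The median of their per-gene differences, day 3 minus day 0, was -0.12, with 68 of 82 below 0, whereas 3 of the 40 members' differences were. Their ratios of day 3 over day 0 had medians of -1.39 in iKO cells and -1.27 in Ctrl cells. The 15 dividing-cell genes, such as Mki67 and Top2a, had a median genotype ratio of -0.10 at day 3 and -0.79 at day 0. The median of their per-gene differences was 0.78, and all 15 were above 0. They summed to 307 CPM in iKO cells and 323 CPM in Ctrl cells at day 3, and to 3224 CPM in iKO cells and 5590 CPM in Ctrl cells at day 0, with none at 0 in any library. Those sums were 1.05-fold lower in iKO cells at day 3 and 1.73-fold lower at day 0, and across the days 10.5-fold lower at day 3 in iKO cells and 17.3-fold lower in Ctrl cells. For iKO over Ctrl, 9 of the 15 were below 0 at day 3 and all 15 at day 0, where 51.3% and 56.5% of the genes compared were. Their part in the members' levels was not tested.

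**Figure D5:**
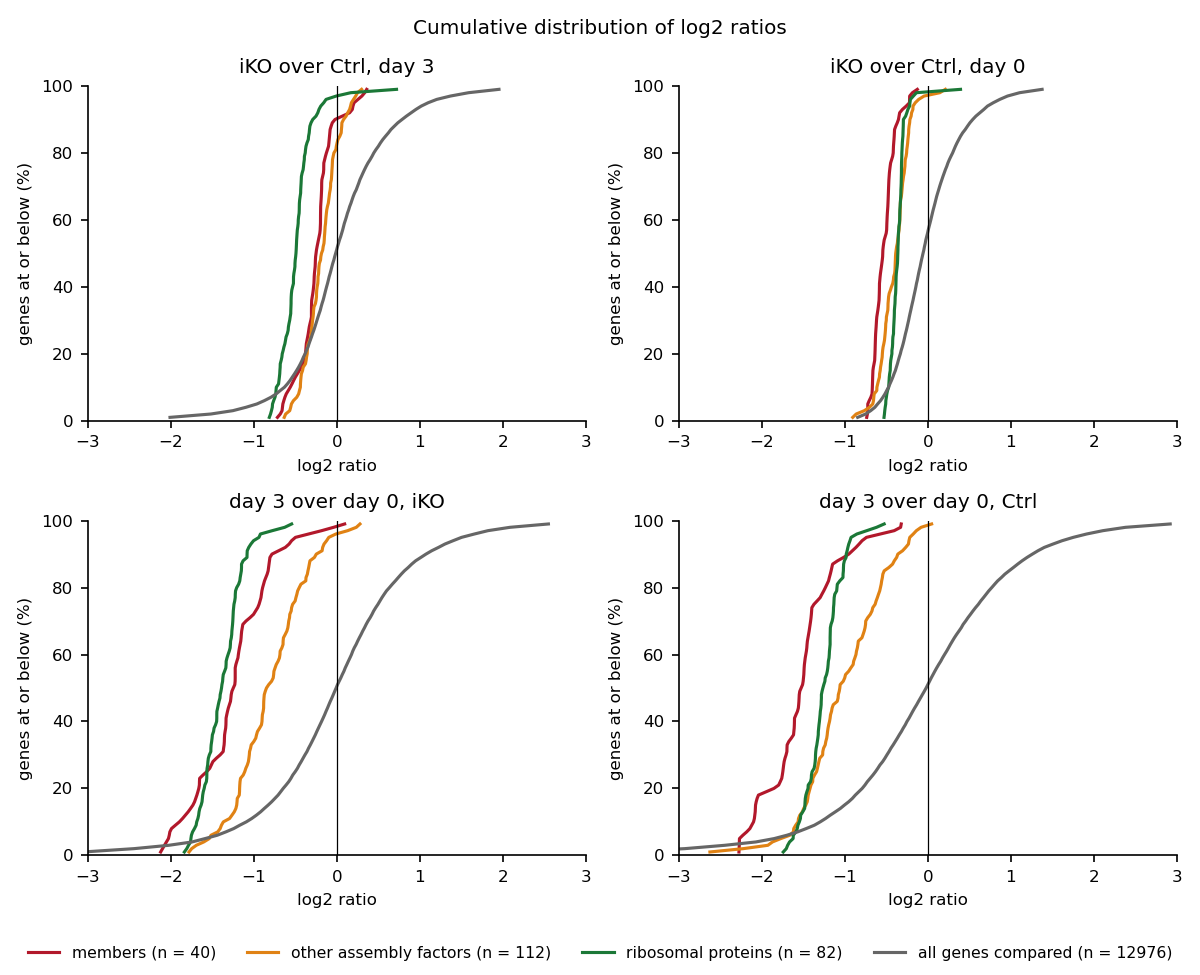
Cumulative distribution (percentiles 1 to 99) of log2 ratios for the 40 members, 112 other assembly factors, 82 ribosomal protein genes and the 12976 genes compared. The upper row shows iKO over Ctrl at day 3 and day 0 and the lower row day 3 over day 0 in iKO and Ctrl cells. The members' curve lies left of the ribosomal proteins' curve for iKO over Ctrl at day 0, where the medians are -0.54 and -0.36, and right of it at day 3, where they are -0.25 and -0.49.

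Markers of other cells differed between the genotypes too. For iKO over Ctrl, 6 of the 8 astrocyte markers were above 0 at day 3 and all 8 at day 0. Of the genes compared, 51.3% were below 0 at day 3 and 56.5% at day 0. At least 2-fold lower were 4.76% of them at day 3 and 0.331% at day 0. The 8 oligodendrocyte lineage markers summed to 3441 CPM in iKO cells and 4719 CPM in Ctrl cells at day 3, with 6 of 8 at least 2-fold lower, and to 4113 CPM in iKO cells and 4647 CPM in Ctrl cells at day 0, with 4 of 8 at least 2-fold lower. The 7 neuron markers summed to 913 CPM in iKO cells and 1702 CPM in Ctrl cells at day 3, and to 853 CPM in iKO cells and 915 CPM in Ctrl cells at day 0. Map2 made up most of each sum: the median log2 ratio of the 7 was -1.37 at day 3, with 5 below 0, and 0.50 at day 0, with all but Map2 above 0. None of the astrocyte, oligodendrocyte or neuron markers was at 0 in any library. Microglia, endothelium and the fibroblast and mural list summed to at most 9.09, 2.60 and 16.1 CPM in any library, and between 1 and 4 of the 7 microglia markers, 1 of the 5 endothelium markers and at most 1 of the 6 fibroblast and mural markers were at 0 in each library. The 3 ependyma markers in the files summed to 270.2 CPM in iKO cells and 69.4 CPM in Ctrl cells at day 3, and to 107 CPM in iKO cells and 51.9 CPM in Ctrl cells at day 0. The part of these cell types in the members' ratios was not tested.

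Some members have features that their selection did not use. RefSeq places snoRNA genes inside 7 of the 40 (17.5%), against 2.38% of the genes compared that were in the annotation, and they number 24: 6 in Taf1d, 5 in Nop56, 4 in Nop58, 3 each in Wdr43 and Gnl3, 2 in Ncl and 1 in Dkc1. The 7 hosts had a median genotype ratio of -0.28 at day 3 and -0.66 at day 0, and the other 33 had -0.24 at day 3 and -0.50 at day 0. Across the days the hosts' medians were -1.65 in iKO cells and -1.81 in Ctrl cells, and those of the other 33 were -1.22 in iKO cells and -1.5 in Ctrl cells. The members lay on 18 chromosomes, with the most, 6, on chromosome 11. Another gene of the files overlaps 12 members, such as Idh3b at Nop56, Ccnd3 at Bysl and Cep295 at Taf1d, and since no source used here says whether counting used strand, their counts may hold reads of the other gene. Fbl and Npm3 each have a pseudogene that bears their symbol, with which reads can be shared. Pseudogenes of members under other names were not searched for. In the authors' deposited tables of differential genes, 1774 for iKO to Ctrl at day 3 and 103 at day 0, none of the 40 members and none of the 112 other pathway genes was listed. The smallest absolute log2 ratio in the authors' deposited tables was 1 at day 3 and 1.004 at day 0. No member reached 2-fold for iKO over Ctrl at either day, so the absence of the 40 adds nothing to that.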

How the data were processed

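Total RNA of primary neural stem cells was sequenced in 4 libraries, 1 per group, as titles and genotypes in the labels give them. Per the submitters' processing notes, StringTie, HISAT and Bowtie2 were used, and the build was mm10. Versions, the counting tool, its annotation and its strand setting are not given in any source used here. Each of the authors' files lists 55122 transcripts with expected counts, estimates with decimals that the authors deposited. The second deposited value has no unit in its header and was taken as FPKM, since it was 0.992 to 0.994 of the FPKM computed from count, transcript length and library total. The authors' deposited tables give a log2 ratio and an FDR, a p-value adjusted for many genes, per the file headers; each compares 1 library with 1 other, so that FDR holds no spread between cultures.

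Expected counts were summed per gene, rounded, and scaled with TMM in edgeR 4.0.16 (R 4.3.3; factors 0.962 and 1.02 for iKO and Ctrl at day 3, 1.06 and 0.966 at day 0). The log2 ratio is log2((CPM1 + 1)/(CPM2 + 1)), so that ratios of low genes are understated. Genes under a mean of 1 CPM were left out. Intervals are exact conditional (Clopper-Pearson) 95% intervals of the rounded counts (scipy 1.17.1), and those of a difference between the days use a normal approximation on the log scale, with none for a gene at 0 in a library. They cover counting error only, as reads can be copies of 1 molecule. Counts were also simulated for iKO against Ctrl over 12976 genes. The share of genes whose interval held the simulated ratio was 95.9% at day 3 and 95.3% at day 0. On each day 96 of 100 genes set 4-fold apart passed 2-fold, as did 0 of 12776 unaltered ones. These figures check the calculation only. With 1 library per group, spread between cultures could not be measured, so they give no false-call rate for the data. No test was run.

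The members, lists, motif and rules were chosen with earlier results of these data known. Per role list and comparison, the genes named are those with the lowest and the highest log2 ratio. From each other pathway list they are the gene with the largest absolute ratio for iKO over Ctrl at day 3 and that for day 3 over day 0 in Ctrl cells, and Seh1l, Myc and Mycn were always named. The text gives full values for part of these, and a gene named outside the rule is one of the members or was chosen after its values were seen. Polr1f, Polr1g and Polr1h were matched under their older symbols. The settings tried besides were a pseudocount of 0.1 or 5 CPM, a minimum of 5 CPM or none, scaling by library totals, by DESeq2 (1.42.0) or as deposited FPKM, and TMM without ribosomal protein, histone and member genes. Protein sequences were not used here.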

Additional observations from a re-analysis of the deposited data

Results flagged for a closer look

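For 3 members the genotype ratio had opposite signs at the 2 days, with both counting intervals clear of a ratio of 1 under TMM scaling. With library totals this held for Utp20 alone, whose day 0 interval then ended at 0.9997, since the day 0 interval of Imp4 and the day 3 interval of Nop2 took in 1. Utp20 had a log2 ratio of iKO over Ctrl of 0.38 at day 3 and -0.22 at day 0. Imp4 had 0.32 at day 3 and -0.22 at day 0. Nop2 had 0.18 at day 3 and -0.34 at day 0. For Imp4 the ratio of day 3 over day 0 also differed in sign, at 0.23 in iKO cells and -0.31 in Ctrl cells, and with library totals its interval in iKO cells took in 1. With 1 library per group these differences were not tested across cultures.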

How the results depend on the processing

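Under the 8 other settings no median changed sign, and the count of members at least 2-fold lower was 0 throughout for iKO over Ctrl at either day, 27 to 33 across the days in iKO cells and 34 to 35 in Ctrl cells. With library totals the median genotype ratio at day 0 was -0.417, the count at least 1.5-fold lower was 3 and the median difference between the days was 0.0617. With the deposited FPKM these were -0.397, 3 and 0.0804. A pseudocount of 5 CPM, which shrinks the ratios of low genes, left 2 members at least 1.5-fold lower at day 3. Neither totals nor FPKM hold a TMM factor, and both also moved the median over all genes; relative to it, the members' median ranged from -0.251 to -0.208 at day 3 and from -0.54 to -0.44 at day 0 for iKO over Ctrl, from -1.26 to -1.12 in iKO cells and from -1.53 to -1.39 in Ctrl cells for day 3 over day 0, and from 0.188 to 0.252 for the difference. The counts at 1.5-fold, those below 0 and those by counting interval were added to the alternatives after the data were seen. No paired analysis was possible because each group holds 1 library and no value has a test. Depth limits the least counted members most: Gar1 had 130 counts in iKO cells at day 3. Spread between cultures, not depth, is the quantity that is missing.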

Other observations

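Among the 112 other assembly genes, 4 had a larger difference of the genotype ratio between the days than any of the 40 members; they were named after their values were seen. Exosc8, a subunit of the RNA exosome, was at 9.59 CPM in iKO cells and 9.15 in Ctrl cells at day 3, and 33.9 CPM in iKO cells and 63.5 in Ctrl cells at day 0, 1.87-fold lower (1.71 to 2.05) in iKO cells at day 0. Lyar was at 9.22 CPM in iKO cells and 9.65 in Ctrl cells at day 3, 1.05-fold lower (0.848 to 1.29) in iKO cells, an interval that took in 1. Znhit3, a snoRNP assembly factor, was at 5.83 CPM in iKO cells and 5.82 in Ctrl cells at day 3, and 8.95 CPM in iKO cells and 17.7 in Ctrl cells at day 0, 1.97-fold lower (1.65 to 2.36) at day 0. Pno1, which acts with Nob1 late in small subunit assembly, was at 34.8 CPM in iKO cells and 23.1 in Ctrl cells at day 3, and 53.0 CPM in iKO cells and 63.5 in Ctrl cells at day 0, 1.51-fold higher (1.33 to 1.70) in iKO cells at day 3 and 1.20-fold lower (1.11 to 1.30) at day 0. The differences between the days were not tested.

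One ribosomal protein gene stood apart from the other 81 at both days: Rpl34 was at 23.9 CPM in iKO cells and 3.53 in Ctrl cells at day 3, and 56.9 CPM in iKO cells and 8.71 in Ctrl cells at day 0, 6.75-fold higher (5.25 to 8.80) in iKO cells at day 3 and 6.54-fold higher (5.58 to 7.70) at day 0. It was the only one of the 82 at least 2-fold higher in iKO cells at either day. Reads can be shared with near-identical copies of ribosomal protein genes, so its counts are uncertain.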
